A study of Homo sapiens with 12 samples.

Results

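MHC class I antigen presentation was followed through 9 genes, HLA-B, HLA-C, HLA-E, HLA-F, B2M, TAP1, TAP2, TAPBP and NLRC5, chosen by symbol from the 30017 symbols of a table of raw RNA sequencing counts. All 9 were in the table and all 9 passed the filter on low counts, HLA-F through its wild-type libraries alone. Per the sample titles the cells were THP-1, a human line established from a monocytic leukaemia. The conditions sequenced were IRAK4 knockout cells given 50 nM CC-885 for 12 h, IRAK4 knockout cells given DMSO, wild-type cells given CC-885, and wild-type cells given DMSO, with 3 polyA-selected libraries in each of the 4 groups. CC-885 is a compound that attaches to cereblon, part of a ubiquitin ligase, and thereby has GSPT1, which ends translation at stop codons, degraded. IRAK4 is a kinase that relays signals from Toll-like and interleukin-1 receptors. Per the labels both genotypes went through electroporation with Cas9, the knockout with and the wild type without a guide against IRAK4, and both were grown out from single cells. The number of clones is not given, so the genotype and the clone cannot be told apart.

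A class I molecule is made of a membrane-bound heavy chain and the small soluble light chain beta-2-microglobulin, and it shows peptides from inside the cell to CD8+ T cells. The peptides are cut by the proteasome, pumped into the endoplasmic reticulum by the TAP transporter, and fitted into the groove with the help of tapasin and folding chaperones. Transcription of these genes answers to interferons, to NF-kB and to NLRC5, a regulator that acts at class I promoters, and monocytic cells are known to raise them under interferon.

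Totals ranged from 46903984 to 56675539 counts per library. IRAK4 read 29.6 to 31.7 CPM (counts scaled to the size of the library) in knockout cells under CC-885, 7.28 to 8.78 CPM in knockout cells under DMSO, 65.4 to 83.6 CPM in wild-type cells under CC-885 and 50.9 to 53.9 CPM in wild-type cells under DMSO, so it was low but present in every knockout library. All 10 monocytic markers exceeded 1 CPM in every group, although their sum was 1436 to 1459 CPM in knockout cells under CC-885, 3272 to 4226 CPM in knockout cells under DMSO, 1679 to 1779 CPM in wild-type cells under CC-885 and 2683 to 2763 CPM in wild-type cells under DMSO. T and NK cell markers summed to at most 20.9 CPM, nearly all of it NKG7, B cell markers to at most 8.61 CPM and erythroid markers to at most 0.673 CPM. The epithelial, stromal and endothelial list held 92.5 to 460 CPM, nearly all of it PECAM1, which monocytes also make. Wild-type CC-885 replicate 3 stood apart, with 130 of 10680 genes more than 2-fold from the mean of the other 2 replicates, against 3 to 11 genes in every other library. Results that rest on it are given with and without it. The library names begin with 51 or 52 and all knockout CC-885 libraries begin with 51. What the prefix stands for is not said. Values from the libraries with prefix 51 alone are given for members whose calls they changed and for B2M. Prefix 51 holds 1 wild-type DMSO library, replicate 1, which was the highest of its group for HLA-E and TAP1, so in such values that group's spread is assumed to be like that of the other groups.

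CC-885 moved the parts of the pathway in opposite directions. The classical heavy-chain genes HLA-B and HLA-C and the non-classical HLA-E were higher under CC-885 in both genotypes, HLA-E by 3.41-fold in knockout cells and 2.95-fold in wild-type cells. TAPBP, which encodes tapasin, and TAP2 were lower under CC-885 in both genotypes, TAPBP by 3.90-fold in knockout cells and 1.90-fold in wild-type cells. In knockout cells 4 members were called higher and 4 lower (edgeR, adjusted p under 0.05), where 78.9% of all 16010 genes tested were called, 38.9% higher and 40.0% lower. In wild-type cells 3 were called higher and 2 lower, where 72.3% of all genes were called, 35.7% higher and 36.6% lower. Without HLA-F, which lay near the detection limit, the counts were 3 higher and 4 lower in knockout cells and 3 higher and 2 lower in wild-type cells. The share of members called was above that of all genes in knockout cells and below it in wild-type cells. With 9 members the count itself is not a result about the pathway. The median log2 change of the 9 members was -0.13 in knockout cells and 0.43 in wild-type cells, against -0.03 over all genes in each. The summed monocytic markers were lower under CC-885 too, and their part in these changes was not tested. In bulk RNA, fewer cells of a type and less RNA per cell cannot be told apart.

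**Figure D1:**
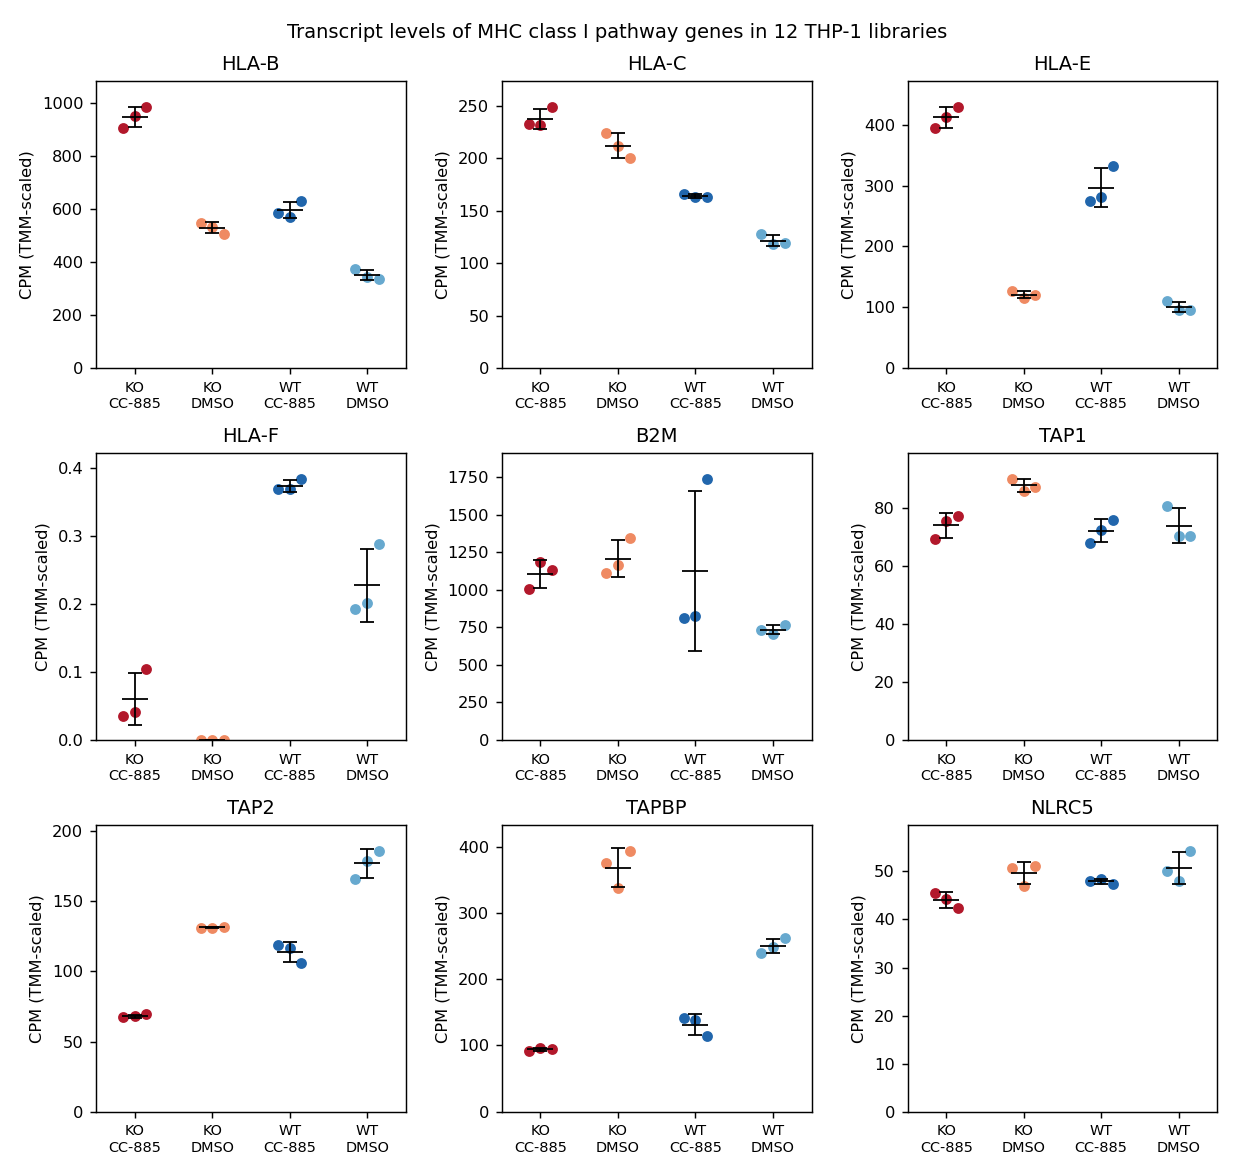
TMM-scaled CPM of the 9 genes in each library (points), with the mean and SD of 3 libraries per group, from left to right knockout CC-885, knockout DMSO, wild-type CC-885 and wild-type DMSO. HLA-B, HLA-C and HLA-E stand higher under CC-885 and TAP2 and TAPBP lower, B2M has 1 wild-type CC-885 library at 1740 CPM, and HLA-F stays below 0.4 CPM.

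The 250 bases before the RefSeq start site (GRCh38.p14) were available for 7 of the 9 genes, and 4 of them are printed because they stand for both directions of change: HLA-B and HLA-C rose, TAP2 and TAPBP fell. Each reads 5′ to 3′ on the gene's own strand, and capitals mark every match, on either strand, to GAAANNGAA (the core of an interferon response element), GGGGATTC (part of a kappaB element, chosen after the sequences were seen), TGACG (a half-site bound by CREB and ATF factors) or CCAAT (the NF-Y box).
HLA-B, chr6:31357180-31357429, minus strand: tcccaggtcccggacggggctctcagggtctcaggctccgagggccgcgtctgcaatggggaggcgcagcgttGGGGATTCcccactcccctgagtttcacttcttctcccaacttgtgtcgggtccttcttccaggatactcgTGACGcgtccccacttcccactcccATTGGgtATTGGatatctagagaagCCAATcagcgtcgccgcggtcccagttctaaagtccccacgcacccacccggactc
HLA-C, chr6:31272093-31272342, minus strand: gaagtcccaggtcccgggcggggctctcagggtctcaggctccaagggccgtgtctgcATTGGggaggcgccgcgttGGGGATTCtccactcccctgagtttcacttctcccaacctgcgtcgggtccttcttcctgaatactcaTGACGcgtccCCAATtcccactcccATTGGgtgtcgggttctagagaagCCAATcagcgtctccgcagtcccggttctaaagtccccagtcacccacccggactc
TAP2, chr6:32838740-32838989, minus strand: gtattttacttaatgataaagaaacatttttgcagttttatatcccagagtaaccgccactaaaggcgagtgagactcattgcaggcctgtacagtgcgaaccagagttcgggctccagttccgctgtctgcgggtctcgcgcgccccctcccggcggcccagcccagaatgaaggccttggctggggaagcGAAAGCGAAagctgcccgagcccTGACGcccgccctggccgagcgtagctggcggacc
TAPBP, chr6:33314079-33314328, minus strand: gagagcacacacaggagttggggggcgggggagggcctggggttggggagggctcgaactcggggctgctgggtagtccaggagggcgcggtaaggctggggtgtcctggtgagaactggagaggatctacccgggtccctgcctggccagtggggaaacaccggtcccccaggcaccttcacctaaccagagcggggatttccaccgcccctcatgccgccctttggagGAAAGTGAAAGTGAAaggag
GAAANNGAA was found in 5 of the 7 windows, those of HLA-F, B2M, TAP1, TAP2 and TAPBP, and in 6.88% of all 35116 promoters of the same length. The paired matches in B2M, TAP1 and TAPBP overlap each other, and the TAPBP pair lies between -20 and -6 from the start. GGGGATTC was found in HLA-B, from -177 to -170, in HLA-C, from -173 to -166, and in 0.772% of all promoters. It overlaps no other motif searched. TGACG was found in HLA-B, HLA-C, B2M and TAP2 and in 21.2% of all promoters, and CCAAT in HLA-B, HLA-C, HLA-F, B2M and TAP1 and in 32.0%. A match describes letters in these windows and not binding, and only exact matches were counted. Windows without capitals for GAAANNGAA, such as those of HLA-B and HLA-C, may still hold a variant of the interferon response element.

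HLA-B and HLA-C, the classical heavy chains in the set, present peptides to CD8+ T cells, and HLA-B had the highest level per length of the heavy-chain members in every group. HLA-B (chromosome 6, 31353875 to 31357179, RefSeq, GRCh38.p14) measured 907, 952 and 985 CPM in knockout cells under CC-885, against 548, 532 and 507 CPM in knockout cells under DMSO. Wild-type cells had 586, 572 and 629 CPM under CC-885, against 373, 345 and 337 CPM under DMSO. Every CC-885 library stood above every DMSO library of its genotype, and every knockout library above every wild-type library of its treatment. The log2 change with CC-885 was 0.84 ± 0.06 (SE) in knockout cells (adjusted p = 2.32e-09) and 0.76 ± 0.06 in wild-type cells (1.25e-08). The difference between these responses was 0.08 (95% interval -0.10 to 0.26, adjusted p = 0.508), so a different response was not shown.

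HLA-C (chromosome 6, 31268749 to 31272092) measured 233, 232 and 249 CPM in knockout cells under CC-885, against 224, 212 and 200 CPM in knockout cells under DMSO. Wild-type levels were 166, 163 and 163 CPM under CC-885, against 128, 118 and 119 CPM under DMSO. All knockout libraries stood above all wild-type libraries, whatever the treatment. The rise with CC-885 was 0.43 ± 0.06 on the log2 scale in wild-type cells (adjusted p = 5.06e-06). In knockout cells it was 0.17 ± 0.06 (adjusted p = 0.0133), and that call was lost without knockout DMSO replicate 3 (0.13, adjusted p = 0.0715), without knockout CC-885 replicate 3 (0.13, 0.0692), with upper-quartile scaling (0.02, 0.777), with library size alone (0.07, 0.293) and with no filter on low counts (0.11, 0.148). The response was smaller in knockout cells by 0.26 ± 0.08 (interaction -0.26, adjusted p = 0.0208). This call was lost with the number in the library name as block (-0.26, 0.0529). Leaving out wild-type DMSO replicate 2 or 3 or knockout CC-885 replicate 1 or 2 ended that call, with interactions of -0.24, -0.24, -0.24 and -0.25 and adjusted p of 0.059, 0.0547, 0.0547 and 0.0576, as did the libraries with prefix 51 alone (-0.23, 0.0594).

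HLA-E, a non-classical heavy chain whose complex is read by the CD94/NKG2A receptor of NK cells, had the largest fold rise among the 8 members other than HLA-F in both genotypes. HLA-E (chromosome 6, 30489509 to 30494194) measured 395, 413 and 429 CPM in knockout cells under CC-885, against 126, 116 and 121 CPM in knockout cells under DMSO. Wild-type libraries read 275, 282 and 333 CPM under CC-885, against 110, 96 and 95.3 CPM under DMSO. The CC-885 and DMSO libraries did not overlap in either genotype. The log2 change was 1.77 ± 0.08 in knockout cells (adjusted p = 4.10e-12) and 1.56 ± 0.08 in wild-type cells (3.45e-11). Their difference was 0.21 ± 0.11 (adjusted p = 0.155), and without wild-type CC-885 replicate 3, the highest of its group, it was 0.30 (0.00942). Within the libraries with prefix 51 it was 0.43 (0.00127), where wild-type DMSO is the single library at 110 CPM.

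HLA-F, a non-classical heavy chain that can stand on cells without peptide, was near the detection limit. It drew 2, 2 and 5 counts in knockout cells under CC-885, and 0, 0 and 0 counts in knockout cells under DMSO. The wild-type libraries drew 19, 19 and 19 counts under CC-885, and 9, 10 and 16 counts under DMSO. The knockout libraries lay below the wild-type libraries of the same treatment, where those of HLA-B and HLA-C lay above. Summed over a group, 9 counts in knockout cells against 57 in wild-type cells under CC-885 gave a 6.29-fold lower level (95% counting interval 3.09 to 14.4), and 0 against 35 counts under DMSO gave a level at least 12.1-fold lower, taking 3 counts over the group as the floor (9.33-fold at the 95% counting limit). With CC-885 the level was at least 3.12-fold higher in knockout cells, against the same floor (2.06-fold at the 95% counting limit), and 1.62-fold higher in wild-type cells (1.05 to 2.55). These intervals and limits cover counting error only. They do not allow for the filter on low counts, which HLA-F passed through its wild-type libraries alone. That selection favoured a lower level in knockout cells. The 4 HLA genes share long stretches of sequence and HLA-F overlaps an antisense gene, and neither the treatment of reads with several matches nor the strand setting is given in the sources used here, so reads may be split among these genes.

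Summing the 4 heavy-chain members gave a value that does not depend on how reads were split among them. The sum measured 1598 ± 64.4 CPM in knockout cells under CC-885 and 862 ± 35.2 CPM in knockout cells under DMSO (SD, n = 3 each), and 1057 ± 59.3 CPM in wild-type cells under CC-885 and 574 ± 32.1 CPM in wild-type cells under DMSO. The log2 change of the sum with CC-885 was 0.89 in knockout cells (adjusted p = 1.71e-09) and 0.88 in wild-type cells (3.14e-09). Knockout cells exceeded wild-type cells by 0.60 under CC-885 (8.01e-07) and by 0.59 under DMSO (1.43e-06). In the sum, the difference in response was 0.01 (adjusted p = 0.941).

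B2M, the light chain of class I molecules (chromosome 15, 44711517 to 44718145), was not called with CC-885 in either genotype. It measured 1005, 1187 and 1131 CPM in knockout cells under CC-885, against 1110, 1168 and 1346 CPM in knockout cells under DMSO, and these groups overlapped. Wild-type cells had 812, 825 and 1740 CPM under CC-885, against 734, 708 and 764 CPM under DMSO. The library at 1740 CPM was replicate 3, which stood apart across the table. In knockout cells the log2 change with CC-885 was -0.13 ± 0.26 (adjusted p = 0.67, 95% interval -0.70 to 0.45). That SE comes from the shared fit, which takes in wild-type CC-885 replicate 3. With the knockout groups fitted alone the change was -0.13 (adjusted p = 0.129), and without that replicate it was -0.13 (0.107). In wild-type cells the log2 change was 0.61 ± 0.26 (0.0554). Without wild-type CC-885 replicate 3 the change in wild-type cells was 0.15 (0.0829), and without wild-type CC-885 replicate 1 or 2 it was 0.80 (0.0192) or 0.79 (0.0176). The difference in response was -0.74 ± 0.36 (adjusted p = 0.151), or -0.28 (0.0384) without replicate 3. Within prefix 51, which does not hold that replicate, the wild-type change was 0.15 (adjusted p = 0.135) and the difference in response -0.19 (0.167).

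TAP1 and TAP2 together form the peptide pump of the endoplasmic reticulum. TAP1 (chromosome 6, 32845209 to 32853704) measured 69.2, 75.5 and 77.4 CPM in knockout cells under CC-885, against 90.1, 86 and 87.4 CPM in knockout cells under DMSO. Wild-type levels were 68, 72.5 and 76 CPM under CC-885, against 80.9, 70.3 and 70.5 CPM under DMSO, and these groups overlapped. TAP1 fell in knockout cells, with a log2 change of -0.25 ± 0.07 (adjusted p = 0.00403). In wild-type cells the change was -0.03 ± 0.07 (adjusted p = 0.677; 95% interval -0.18 to 0.11), and it was 0.03 without wild-type DMSO replicate 1. Within prefix 51, where that replicate at 80.9 CPM is the only wild-type DMSO library, it was -0.22 (0.0272). The difference in response was -0.21 ± 0.10 (adjusted p = 0.106). Without wild-type DMSO replicate 1 it was -0.28 and was called (0.0321), as it was with upper-quartile scaling (-0.29, 0.0357), with library size alone (-0.26, 0.0452) and with no filter (-0.30, 0.0329).

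TAP2 (chromosome 6, 32821831 to 32838739) measured 67.2, 67.9 and 69.3 CPM in knockout cells under CC-885, against 131, 131 and 132 CPM in knockout cells under DMSO. Wild-type libraries read 119, 117 and 106 CPM under CC-885, against 166, 179 and 186 CPM under DMSO. The 4 groups did not overlap, and both the drug and the knockout went with lower levels. The log2 change with CC-885 was -0.95 ± 0.06 in knockout cells (adjusted p = 3.20e-10), a 1.93-fold fall, and -0.63 ± 0.06 in wild-type cells (6.63e-08), a 1.55-fold fall. The response was stronger in knockout cells, with an interaction of -0.31 ± 0.08 (0.00792).

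TAPBP encodes tapasin, which bridges the TAP pump and the empty heavy chain and edits the peptides that are loaded. TAPBP (chromosome 6, 33299694 to 33314078) measured 92, 96.7 and 94.9 CPM in knockout cells under CC-885, against 375, 337 and 394 CPM in knockout cells under DMSO. Wild-type cells had 142, 139 and 114 CPM under CC-885, against 240, 248 and 262 CPM under DMSO. The knockout libraries were thus the highest under DMSO and the lowest under CC-885, with no overlap among the 4 groups. The log2 change with CC-885 was -1.96 ± 0.08 in knockout cells (adjusted p = 2.06e-12) and -0.92 ± 0.08 in wild-type cells (2.82e-08). The interaction was -1.04 ± 0.11 (adjusted p = 7.09e-06), the largest difference in response among the 8 members other than HLA-F.

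NLRC5, the regulator that binds class I promoters through the RFX and NF-Y complexes, changed little. NLRC5 (chromosome 16, 56989557 to 57083520) measured 45.5, 44.3 and 42.3 CPM in knockout cells under CC-885, against 50.7, 47 and 51.1 CPM in knockout cells under DMSO. Wild-type levels were 47.9, 48.4 and 47.4 CPM under CC-885, against 50, 47.9 and 54.3 CPM under DMSO. The log2 change with CC-885 was -0.17 ± 0.06 in knockout cells (adjusted p = 0.0227) and -0.08 ± 0.06 in wild-type cells (0.252; 95% interval -0.22 to 0.05). The call in knockout cells was lost without knockout DMSO replicate 1 (-0.15, 0.0683), knockout DMSO replicate 3 (-0.15, 0.0729) or knockout CC-885 replicate 3 (-0.14, 0.0923). With upper-quartile scaling the change in wild-type cells was called (-0.15, 0.0474).

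**Figure D2:**
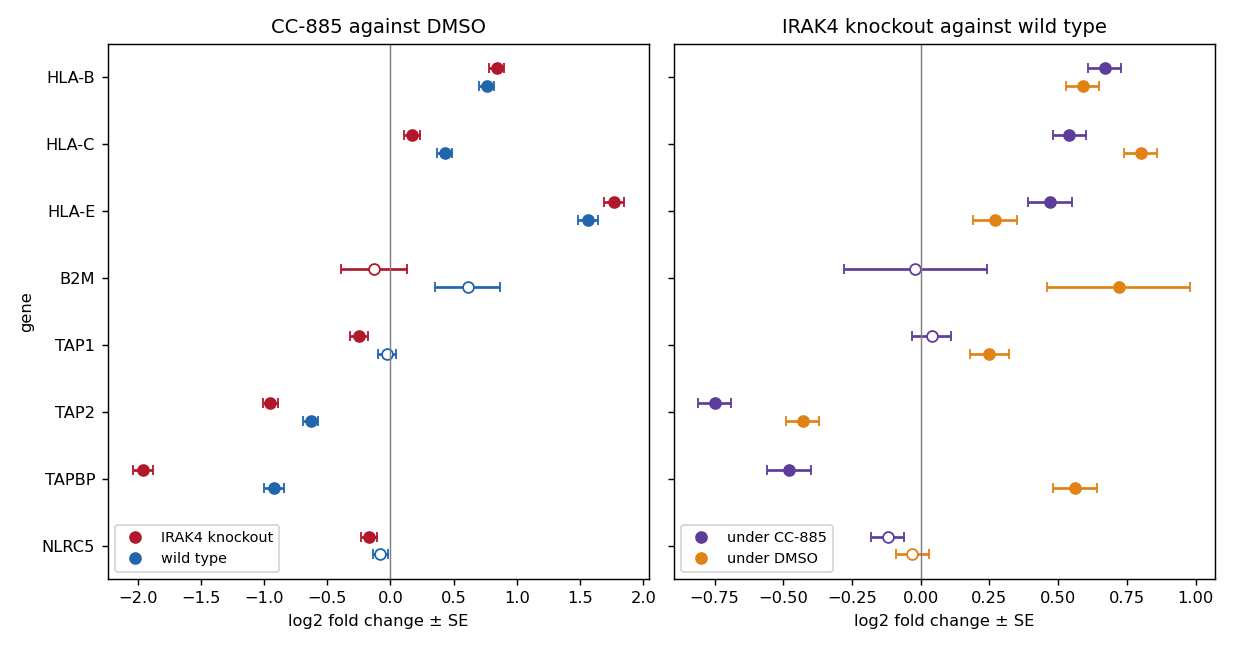
Log2 fold changes ± SE of 8 members, for CC-885 against DMSO by genotype (left) and for IRAK4 knockout against wild type by treatment (right), with filled points called at an adjusted p under 0.05. HLA-F is left out for its low counts. TAPBP lies at -1.96 and -0.92 for the drug, and on the right it lies below 0 under CC-885 (-0.48) and above 0 under DMSO (0.56).

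Knockout cells had more heavy-chain transcript than wild-type cells under both treatments, and less TAP2. Under CC-885, 3 members were called higher in knockout and 3 lower, where 58.6% of all genes were called, 27.8% higher and 30.8% lower. Without HLA-F the counts were 3 higher and 2 lower. HLA-B was higher by 0.67 ± 0.06 on the log2 scale (adjusted p = 1.56e-07), HLA-C by 0.54 ± 0.06 (8.83e-07) and HLA-E by 0.47 ± 0.08 (6.04e-05). TAP2 was lower (-0.75 ± 0.06, 3.01e-08) and so was TAPBP (-0.48 ± 0.08, 8.69e-05). HLA-F was lower as well, as given above. TAP1 differed by 0.04 ± 0.07 (adjusted p = 0.676) and NLRC5 by -0.12 ± 0.06 (0.117). B2M differed by -0.02 ± 0.26 (0.944), and without wild-type CC-885 replicate 3 it was higher in knockout by 0.44 (8.95e-05). Within prefix 51, which does not hold that replicate, B2M was higher by 0.43.

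Under DMSO, 6 members were called higher in knockout and 2 lower, where 49.7% of all genes were called, 21.3% higher and 28.4% lower. Leaving HLA-F aside, 6 were higher and 1 lower. The median log2 difference of all 9 members, HLA-F included, was 0.27, against -0.06 over all genes. HLA-C was higher by 0.80 ± 0.06 (adjusted p = 1.43e-08), HLA-B by 0.59 ± 0.06 (9.26e-07), TAPBP by 0.56 ± 0.08 (2.57e-05), HLA-E by 0.27 ± 0.08 (0.00832) and TAP1 by 0.25 ± 0.07 (0.00718). TAP2 was lower (-0.43 ± 0.06, 1.62e-05), and NLRC5 differed by -0.03 ± 0.06 (0.69). Within prefix 51 the calls of HLA-E (0.13, adjusted p = 0.194) and TAP1 (0.11, 0.298) were lost, with the single wild-type DMSO library that was the highest of its group for both. B2M was higher by 0.72 ± 0.26 (0.0435), with all 3 knockout libraries above all 3 wild-type libraries. Its call was lost when any library of the DMSO groups was left out (0.63 to 0.78, adjusted p 0.064 to 0.125), and also when knockout CC-885 replicate 1, 2 or 3 was left out of the shared fit (0.0514, 0.0548 and 0.0569). Without wild-type CC-885 replicate 3 the value was 0.72 (4.42e-08), and with the DMSO groups fitted alone it was 0.78 (3.18e-07). Within prefix 51, with its single wild-type DMSO library, B2M was higher by 0.63.

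The response to CC-885 itself differed between genotypes for 4 members, 1 higher and 3 lower in knockout, where 34.7% of all genes were called, 17.9% higher and 16.8% lower. The 3 lower were TAPBP, TAP2 and HLA-C, and the 1 higher was HLA-F, with 0 counts in knockout cells under DMSO, so that 0 were higher without it. The HLA-F call (adjusted p = 0.0303) was lost without wild-type DMSO replicate 3 (0.0523), without knockout DMSO replicate 1, 2 or 3 (0.0593, 0.0655 and 0.0628), without knockout CC-885 replicate 3 (0.0707), by DESeq2 (0.0542), with the number in the library name as block (0.0676) and within prefix 51 (0.146). Knockout and wild-type responses of TAPBP and TAP2 had the same sign and differed in size.

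Ratios of raw counts within a library need no scaling between libraries, and they set the parts of the pathway side by side as a description. HLA-E made up 25.7%, 25.8% and 25.8% of the counts of the 4 heavy-chain members in knockout cells under CC-885, and 14%, 13.5% and 14.6% in knockout cells under DMSO. In wild-type cells its share was 26.8%, 27.7% and 29.6% under CC-885, and 18%, 17.2% and 17.3% under DMSO. The HLA-C share moved the other way, at 14.9% ± 0.325 in knockout cells under CC-885 and 24.6% ± 0.415 in knockout cells under DMSO, and 15.5% ± 0.905 in wild-type cells under CC-885 and 21.2% ± 0.337 in wild-type cells under DMSO (SD, n = 3 each). The HLA-B share stayed between 55.9% and 61.9% in every library.

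The loading genes fell behind the heavy chains. TAPBP had 6, 6.06 and 5.71 counts per 100 heavy-chain counts in knockout cells under CC-885, and 41.7, 39.2 and 47.7 in knockout cells under DMSO. In wild-type cells it had 13.8, 13.7 and 10.1 under CC-885, and 39.3, 44.3 and 47.5 under DMSO. Under DMSO the genotypes overlapped in this ratio, and under CC-885 every knockout library was below every wild-type library. TAP1 and TAP2 together had 8.9 ± 0.0824 counts per 100 heavy-chain counts in knockout cells under CC-885 and 25.4 ± 0.965 in knockout cells under DMSO. In wild-type cells they had 17.7 ± 1.30 under CC-885 and 43.8 ± 3.03 under DMSO.

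The balance inside the pump shifted too. TAP2 had 0.972, 0.899 and 0.896 counts per TAP1 count in knockout cells under CC-885, and 1.45, 1.52 and 1.51 in knockout cells under DMSO. In wild-type cells it had 1.76, 1.61 and 1.4 under CC-885, and 2.06, 2.55 and 2.63 under DMSO. B2M had 0.655, 0.743 and 0.68 counts per heavy-chain count in knockout cells under CC-885, and 1.24, 1.36 and 1.63 in knockout cells under DMSO. In wild-type cells it had 0.791, 0.811 and 1.55 under CC-885, and 1.2, 1.27 and 1.38 under DMSO, and the value of 1.55 is that of replicate 3.

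**Figure D3:**
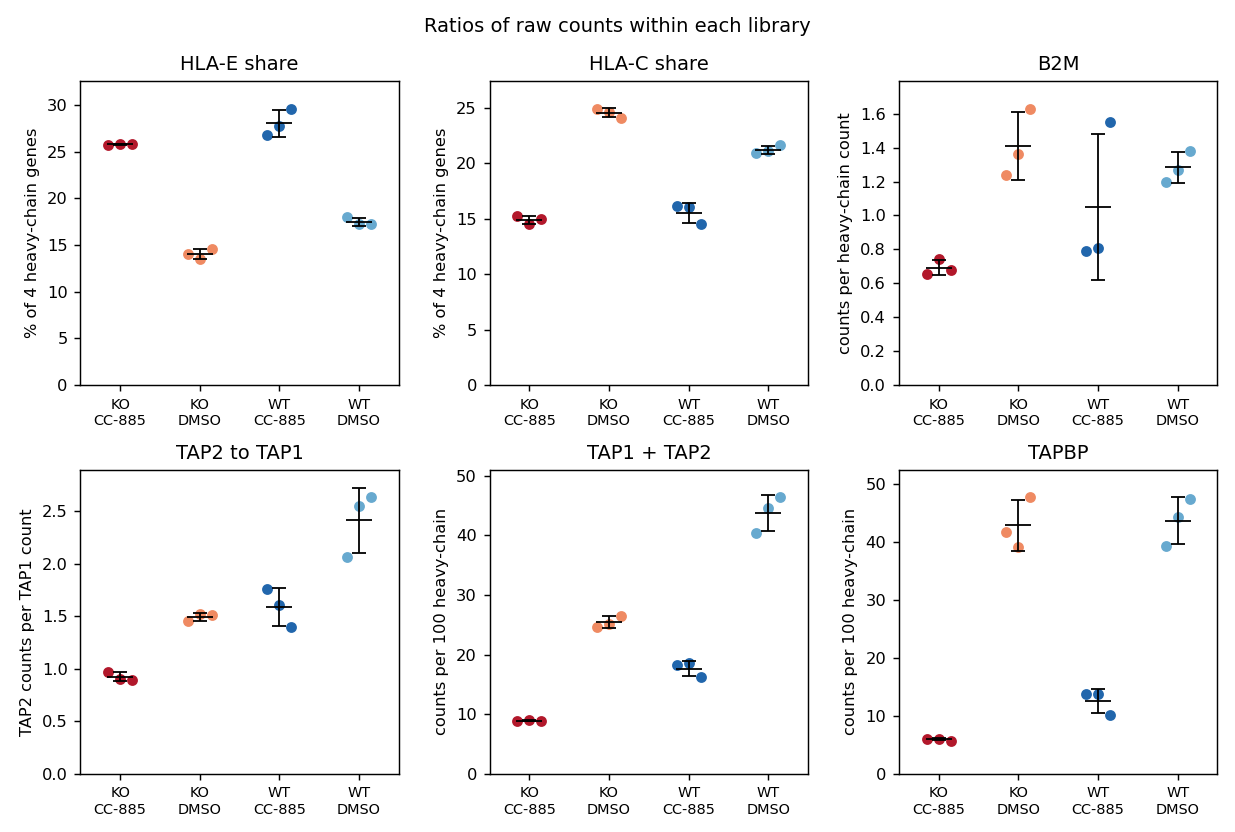
Ratios of raw counts within each library (points), with mean and SD of 3 libraries per group, in the order knockout CC-885, knockout DMSO, wild-type CC-885 and wild-type DMSO. The HLA-E share is higher and the HLA-C share lower under CC-885, and TAPBP per 100 heavy-chain counts is 5.92 and 12.6 under CC-885, against 42.9 and 43.7 under DMSO, for knockout and wild type.

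Divided by merged exon length (GENCODE release 29), the levels ranked differently under CC-885 and DMSO. The merged exons of all annotated transcripts were used, which for B2M take in 6079 of the 6629 bases of the gene. For HLA-B they come to 3051 bases. If shorter transcripts dominate, the level of B2M per kb is too low, so its place against the heavy chains is not settled. In knockout cells under CC-885 HLA-B led with 311 ± 12.8 CPM per kb, before B2M with 182 ± 15.3, HLA-E with 138 ± 5.75 and HLA-C with 95 ± 3.94. In knockout cells under DMSO B2M (199 ± 20.3 CPM per kb) and HLA-B (173 ± 6.81) had SDs that met, followed by HLA-C with 84.5 ± 4.87, TAPBP with 72.9 ± 5.77 and HLA-E with 40.7 ± 1.59. In wild-type cells under CC-885 HLA-B (195 ± 9.68 CPM per kb) and B2M (185 ± 87.5) were not apart, and HLA-E (99.7 ± 10.5) stood above HLA-C (65.4 ± 0.545). In wild-type cells under DMSO B2M (121 ± 4.57 CPM per kb) and HLA-B (115 ± 6.15) were within their SDs, as were TAPBP (49.5 ± 2.21) and HLA-C (48.6 ± 2.11), with HLA-E at 33.8 ± 2.78. TAP1 and TAP2 lay between 10.7 and 27.7 CPM per kb in all groups, and NLRC5 between 3.55 and 4.1.

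Of 12 other genes of peptide loading and folding in the endoplasmic reticulum, 9 fell and 1 rose under CC-885 in each genotype, with a median log2 change of -0.76 in knockout cells and -0.51 in wild-type cells, against -0.03 over all genes in each. Over all genes 40.0% fell in knockout cells and 36.6% in wild-type cells. CALR, the chaperone calreticulin of the loading complex, averaged 533 CPM under CC-885 against 1615 CPM under DMSO in knockout cells (-1.60 ± 0.06, adjusted p = 3.09e-13), and 543 against 1224 CPM in wild-type cells (-1.17 ± 0.06, 2.21e-11). TAPBPL, the tapasin-related editor TAPBPR, averaged 4.54 CPM under CC-885 against 17.6 CPM under DMSO in knockout cells (-1.95 ± 0.12, 2.95e-10) and 4.48 against 10.8 CPM in wild-type cells (-1.27 ± 0.12, 1.01e-07). ERAP2, a peptide-trimming enzyme, rose in knockout cells (0.74 ± 0.16, 0.00044), with a change of 0.25 ± 0.16 in wild-type cells (0.158), and this difference in response was not called (0.49 ± 0.22, 0.101). The chaperone HSPA5 rose in wild-type cells (0.56 ± 0.05, 1.32e-07). ERAP2 and the HSPA5 response in wild type were named after their values were seen. Knockout exceeded wild type for 7 of the 12 under DMSO, where 21.3% of all genes were called higher, and for 1 under CC-885, where 27.8% were. In knockout 5 responses were lower, where 16.8% of all genes were, among them HSPA5 (-0.67 ± 0.08, 1.27e-05) and the glucosidase subunit GANAB (-0.66 ± 0.10, 0.000129).

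Among 16 genes of the immunoproteasome, its activator and cytosolic peptidases, 4 rose and 8 fell in knockout cells under CC-885, and 4 rose and 11 fell in wild-type cells, with median log2 changes of -0.19 and -0.34. Over all genes 38.9% rose and 40.0% fell in knockout cells, and 35.7% rose and 36.6% fell in wild-type cells. Knockout was higher than wild type for 5 and lower for 8 under CC-885, and higher for 1 and lower for 7 under DMSO, where 27.8% and 30.8%, and 21.3% and 28.4%, of all genes were. PSMB8, an inducible subunit of the immunoproteasome, averaged 63.8 CPM under CC-885 against 188 CPM under DMSO in knockout cells (-1.56 ± 0.07, adjusted p = 5.33e-12) and 113 against 221 CPM in wild-type cells (-0.97 ± 0.07, 2.66e-09). PSMB5, the constitutive subunit that PSMB8 replaces, fell as well, at -1.30 ± 0.06 in knockout cells (1.73e-11) and -0.93 ± 0.06 in wild-type cells (1.65e-09). TPP2, a large cytosolic peptidase, rose by 1.41 ± 0.06 in knockout cells (1.10e-12) and 0.89 ± 0.06 in wild-type cells (5.10e-10). PSMB9, the immunoproteasome subunit encoded beside TAP1 and named after its values were seen, had changes of -1.15 ± 0.09 in knockout cells (4.98e-09) and -0.66 ± 0.09 in wild-type cells (4.72e-06).

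Of 23 transcriptional regulators of class I genes other than NLRC5, 10 rose and 8 fell in knockout cells under CC-885, and 11 rose and 7 fell in wild-type cells, with median log2 changes of 0.14 and 0.11. These shares are near those of all genes, of which 78.9% were called in knockout cells and 72.3% in wild-type cells. Between genotypes 3 were higher in knockout and 11 lower under CC-885, where 27.8% and 30.8% of all genes were, and 1 was higher and 9 lower under DMSO, where 21.3% and 28.4% were. NFKB1, a subunit of NF-kB, averaged 298 CPM under CC-885 against 60 CPM under DMSO in knockout cells (2.31 ± 0.06, adjusted p = 9.20e-15) and 194 against 62.7 CPM in wild-type cells (1.63 ± 0.06, 7.47e-13). RFXAP, a subunit of the RFX complex, averaged 1.87 against 6.84 CPM in knockout cells (-1.87 ± 0.15, 5.95e-09). IRF9, a factor of the response to type I interferon, averaged 33.6 CPM in knockout cells against 173 CPM in wild-type cells under CC-885 (-2.36 ± 0.10, 3.82e-11), and 13.8 against 30.5 CPM under DMSO (-1.14 ± 0.10, 1.47e-07). HLA-B, HLA-C and HLA-E were higher in these knockout libraries, and a link between their levels and IRF9 was not tested.

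Of 11 interferon receptor and signalling genes, 6 rose and 3 fell in knockout cells under CC-885, and 6 rose and 4 fell in wild-type cells, with median log2 changes of 0.22 and 0.52. Of all genes, 38.9% rose and 40.0% fell in knockout cells, and 35.7% rose and 36.6% fell in wild-type cells. IFNGR2, a chain of the interferon-gamma receptor, fell in both genotypes (-1.10 ± 0.06, adjusted p = 9.64e-11, and -0.89 ± 0.06, 2.18e-09, for knockout and wild type). SOCS1, an inhibitor of this signalling, averaged 5.27 CPM under CC-885 against 1.09 CPM under DMSO in wild-type cells (2.28 ± 0.19, 1.95e-08). USP18, an interferon-induced brake on the type I receptor, averaged 1.63 CPM in knockout cells against 18.1 CPM in wild-type cells under CC-885 (-3.46 ± 0.19, 1.03e-09).

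Of 13 genes tested that remove class I from the surface or degrade it, 5 rose and 6 fell in knockout cells under CC-885, and 5 rose and 5 fell in wild-type cells, with median log2 changes of -0.12 and 0.04. The shares are near those of all genes, 38.9% higher and 40.0% lower in knockout cells and 35.7% and 36.6% in wild-type cells. KIAA0247, the older symbol of SUSD6, a membrane protein that works with the ubiquitin ligase WWP2 in class I turnover, averaged 179 CPM under CC-885 against 65.5 CPM under DMSO in knockout cells (1.45 ± 0.06, adjusted p = 8.56e-13) and 122 against 54.9 CPM in wild-type cells (1.16 ± 0.06, 2.52e-11). WWP2 rose by 1.11 ± 0.05 in knockout cells (1.09e-11). MARCH9, a membrane ubiquitin ligase, fell in both genotypes (-1.04 ± 0.14, 3.71e-06, and -1.34 ± 0.14, 4.26e-07, for knockout and wild type).

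Large changes were also found among ligands that resemble class I and on a list of myeloid receptors, of which some read it. Of 5 stress-induced ligands of the NKG2D receptor that were tested, 3 rose and 2 fell in each genotype, with median log2 changes of 0.54 in knockout cells and 0.62 in wild-type cells, where 78.9% and 72.3% of all genes were called. ULBP2 averaged 57.6 CPM under CC-885 against 2.87 CPM under DMSO in knockout cells (4.33 ± 0.09, adjusted p = 7.53e-16) and 46 against 2.28 CPM in wild-type cells (4.33 ± 0.09, 1.49e-15). ULBP1 averaged 32.7 against 2.25 CPM in knockout cells (3.86 ± 0.10, 1.51e-14) and 49.5 against 1.95 CPM in wild-type cells (4.67 ± 0.11, 5.55e-15), and MICB fell in both. Of 6 tested genes of this receptor list, 5 fell and 0 rose in each genotype, where 40.0% and 36.6% of all genes fell. The median log2 change was -1.92 in knockout cells and -1.78 in wild-type cells. Binding to class I is not established for every gene of this list, LILRA2 included. LILRA2 averaged 10 CPM under CC-885 against 67.5 CPM under DMSO in knockout cells (-2.75 ± 0.07, 1.46e-14) and 21.2 against 83 CPM in wild-type cells (-1.97 ± 0.07, 7.83e-13). The LILR genes are near-identical in parts, so reads may be split among them. Knockout was lower than wild type for 4 of the 6 under CC-885 and for 3 under DMSO, where 30.8% and 28.4% of all genes were lower, and higher for 0.

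Of 8 tested relatives of the class I chains, 2 rose and 3 fell under CC-885 in each genotype, with median log2 changes of 0.09 in knockout cells and 0.31 in wild-type cells, where 78.9% and 72.3% of all genes were called. FCGRT, the heavy chain of the neonatal Fc receptor, which also pairs with B2M, averaged 230 CPM in knockout cells against 99.6 CPM in wild-type cells under CC-885 (1.21 ± 0.08, adjusted p = 2.82e-09) and 348 against 125 CPM under DMSO (1.48 ± 0.08, 4.18e-10). CD1D, which presents lipids, fell with CC-885 in knockout cells (-1.15 ± 0.09, 3.52e-09) and wild-type cells (-0.96 ± 0.09, 5.38e-08).

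**Figure D4:**
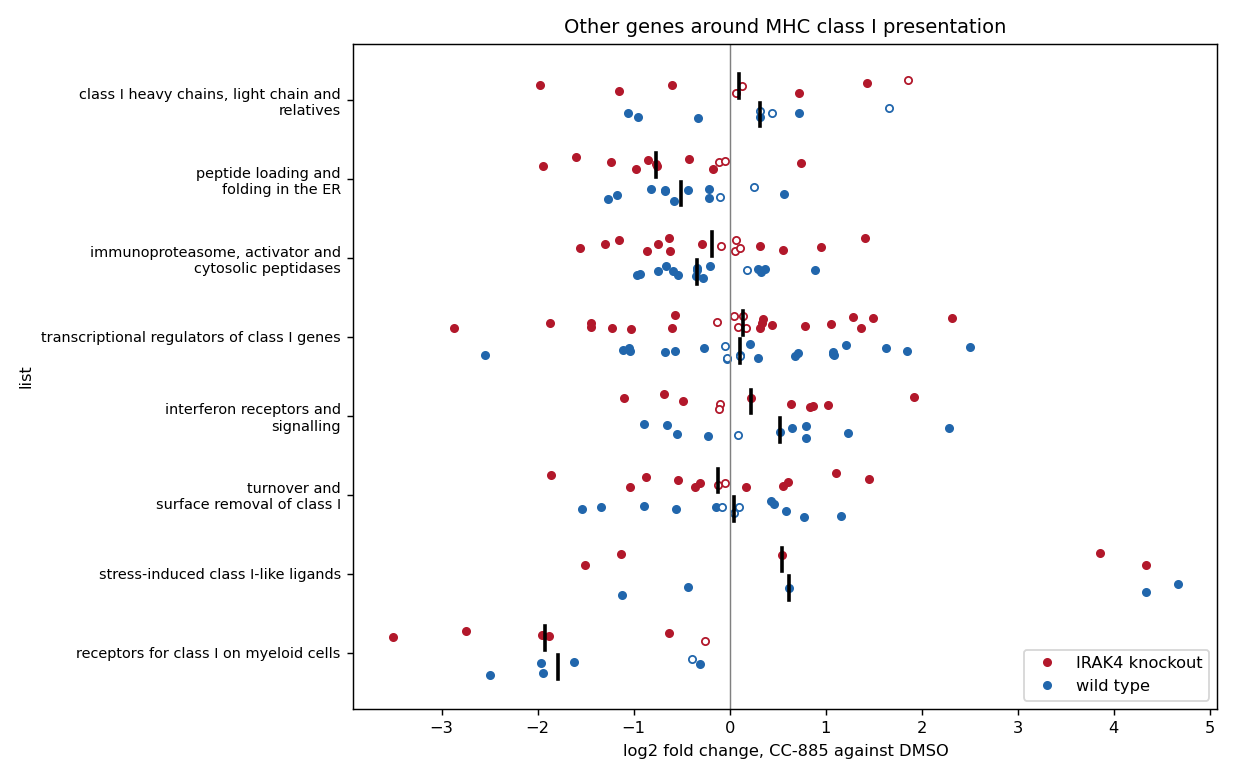
Log2 fold change of each tested gene with CC-885 against DMSO, by list, in knockout (upper row of each list) and wild type (lower row), with filled points called at an adjusted p under 0.05 and black bars at the median. The loading and folding list has medians of -0.76 and -0.51 and the receptor list -1.92 and -1.78, for knockout and wild type, while 2 stress ligands lie beyond 3.8.

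HLA-B, HLA-C, HLA-E, HLA-F, TAP1, TAP2 and TAPBP lie on a stretch of chromosome 6 that runs from HLA-F to TAPBP, where RefSeq places 179 other symbols of the table. Of the 114 tested, 45 rose and 48 fell with CC-885 in knockout cells, with a median log2 change of -0.06, and 36 rose and 41 fell in wild-type cells, with a median of -0.09. Under CC-885 knockout exceeded wild type for 32 and was lower for 36, and under DMSO 23 were higher and 34 lower. Of all genes, 38.9% rose and 40.0% fell with CC-885 in knockout cells, and 35.7% and 36.6% in wild-type cells. Between genotypes 27.8% were higher and 30.8% lower under CC-885, and 21.3% and 28.4% under DMSO. The shares in the region are near these, so its counts are not a result about the region. TUBB, a tubulin gene of the region, had changes of -3.98 ± 0.07 in knockout cells (adjusted p = 3.16e-16) and -2.26 ± 0.07 in wild-type cells (6.35e-14), and the chromatin reader BRD2 had a change of 2.25 ± 0.07 in wild-type cells (6.35e-14).

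The genes whose pattern over the 12 libraries was nearest to that of NLRC5 were EXOC7, MAEA, NPTXR, RNPS1 and EIF4H. Their root mean square differences were 0.055 to 0.0686 in centred log2 CPM, among 10672 candidates. NLRC5 itself was nearly level, with group means from 44 to 50.7 CPM, so genes that changed little lie near it. Shared regulation was not tested.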

How the data were processed

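PolyA RNA from 12 THP-1 libraries was measured as raw counts per gene symbol, deposited by the authors in 1 table without normalization. The cell line label differs by a running number between samples, and all were taken as THP-1 from their titles. Per the submitters' processing notes GRCh38 was the build and featureCounts 1.5.2, HISAT2 2.0.5 and FastQC 0.11.2 were the tools. The labels' extraction protocol names a mouse build instead. The symbols are human. For the strand setting and for reads with several matches, the treatment is not given in the sources used here.

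Low genes were filtered by group (filterByExpr), scaled by TMM and fitted over all 12 libraries with 1 coefficient per group by edgeR 4.0.16 (quasi-likelihood, robust, R 4.3.3). P-values were adjusted by Benjamini-Hochberg over 16010 genes, and called at 0.05. The fit was tested on simulated data. Levels are TMM-scaled CPM, given per library or as mean ± SD (n = 3), and changes are relative, since total RNA per cell was not measured. Standard errors came from the F statistic. The labels do not say whether replicates are separate cultures, so p-values measure the spread between these libraries, which may be technical. HLA-F was given as counts with a floor of 3 counts over a group.

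Members and lists were chosen with earlier results of these data known. From each list each comparison names up to 3 called genes with the largest change among those with at least 5 CPM in the higher group; a selection of these is printed, and the text marks others. No sum over a list was tested. Alternatives were RLE, upper-quartile and library-size scaling, no filter, replicate blocks, the library-name prefix, fits of the compared groups alone, summed HLA genes, each library left out, and DESeq2 1.42.0. Promoter sequences are from RefSeq (GRCh38.p14). A result on 1 gene of the regulator list is not reported here.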

Additional observations from a re-analysis of the deposited data

Results flagged for a closer look

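The response to CC-885 differed between knockout and wild type, by the interaction test at an adjusted p under 0.05, for 4 members. The response in knockout minus that in wild type, on the log2 scale, was -1.04 for TAPBP, -0.31 for TAP2 and -0.26 for HLA-C. It was 3.97 for HLA-F, a fitted value that rests on 9 counts in knockout cells under CC-885 and 0 under DMSO, against 57 and 35 in wild-type cells, and is no measure of size. Its call was lost without any 1 of 5 of the 12 libraries (adjusted p 0.0523 to 0.0707), by DESeq2 (0.0542), with the number in the library name as block (0.0676) and within prefix 51 (0.146). The edited gene IRAK4 differed by 1.41.

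Genes of the lists differed as well. Lower responses in knockout were found for PROCR (-0.92, or -0.60 without wild-type CC-885 replicate 3) and MR1 (-0.25) among class I relatives, for TAPBPL (-0.68), HSPA5 (-0.67) and GANAB (-0.66) in loading and folding, and for PSMB8 (-0.59) in the immunoproteasome. Among regulators and interferon signalling they were found for RFXAP (-1.2), IRF9 (-1.22) and USP18 (-1.34), and in turnover for SYVN1 (-0.35) and SEL1L (-0.55). Among ligands and receptors they were found for MICB (-0.39), ULBP1 (-0.82), LILRB4 (-0.33), LILRA1 (-1.01) and LILRA2 (-0.78). Higher responses in knockout were found for PSME3 (0.62), TPP2 (0.53), IFNAR2 (0.55), JAK1 (0.36) and MARCH8 (0.36). Over all genes 34.7% were called in this test. With each of the 12 libraries left out in turn, the call of MR1 was lost 11 times, that of MARCH8 10 times and that of MICB 9 times. The call of SYVN1 was lost when some single libraries were left out.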

How the results depend on the processing

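The calls of HLA-B, TAP2 and TAPBP kept their direction and passed the threshold in all 4 drug and genotype comparisons under every alternative. Upper-quartile scaling shifted the median of all genes by -0.147 in the drug comparison in knockout cells and by 0.122 between genotypes under DMSO, and it moved the share of higher calls to 60.7% from 42.9% between genotypes under DMSO and to 39.7% from 51.6% in the interaction. With each library left out in turn, 6 to 8 members were called for CC-885 in knockout cells, 5 to 6 in wild-type cells, 6 to 7 between genotypes under CC-885, 7 to 8 under DMSO and 2 to 6 in the interaction, with 2 without wild-type DMSO replicate 3. Summing the HLA genes left 2 in the interaction, since 4 genes became 1, and put HLA-C at 0.01 there and HLA-F at 0.60 and 0.59 between genotypes under CC-885 and DMSO. B2M turned to 0.03 in knockout cells with the prefix as a covariate, and between genotypes under CC-885 to 0.03 (upper quartile), 0.19 (prefix covariate), 0.43 (prefix 51 alone) and, with 1 library left out, anywhere from -0.21 to 0.44 (0.44 without wild-type CC-885 replicate 3 and 0.04 without knockout CC-885 replicate 1). NLRC5 between genotypes under DMSO turned to 0.09 (upper quartile), 0.02 (library size), 0.02 (no filter), 0.03 (compared groups alone) and, with 1 library left out, up to 0.02. TAP1 in wild-type cells ranged from -0.07 to 0.03 with a library left out, and between genotypes under CC-885 from -0.01 to 0.08. HLA-B in the interaction was 0 with no filter. None of these reversed values was a call before, except those of HLA-C and HLA-F in the sum. The cause was not tested.

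Same-numbered libraries had correlations of their deviations between -0.05 and 0.07, so no effect shared by number was seen. This cannot exclude that same-numbered libraries were grown or prepared together. With the title number as a replicate block, 8, 6, 6, 8 and 4 members were called for CC-885 in knockout and wild type, the genotypes under CC-885 and DMSO, and the interaction. B2M was then 0.55 in wild-type cells (called) and 0.04 between genotypes under CC-885. With the number in the library name as block the counts were 5 between genotypes under DMSO and 2 in the interaction. The calls lost under DMSO were HLA-E (0.24, adjusted p = 0.0716), TAP1 (0.20, 0.0935) and B2M (0.77, 0.0876). Those lost in the interaction were HLA-C and HLA-F. With this block B2M was 0.06 in knockout cells and 0.18 between genotypes under CC-885, and NLRC5 was 0.05 between genotypes under DMSO. Of 115 named list values, 6 lost their call under at least 1 of the 23 alternatives and none reversed. Depth limits HLA-F alone among the members.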
